A study of Mus musculus with 9 samples.

Results

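The genes described here are 10 members of the NRF2 antioxidant response, chosen by their symbols from the 55471 genes of the count table: *Nfe2l2*, *Keap1*, *Nqo1*, *Gclc*, *Gclm*, *Slc7a11*, *Srxn1*, *Txnrd1*, *Sod1* and *Sod2*. Each symbol matched 1 row, and all 10 passed edgeR's filter on low counts, which left 16260 genes to test. RNA was sequenced from wild-type DCs grown out of C57BL/6 mouse bone marrow in RPMI medium with serum, GM-CSF and beta-mercaptoethanol, a thiol reagent that all groups shared. For 6 h these cells received no stimulus, LPS, a bacterial component sensed by a Toll-like receptor, or the type I interferon IFN-β. Libraries lettered A, B and C, 3 per group, made up the 9 analysed. The sources used here do not say whether these came from separate cultures or animals, so p-values measure only the spread between libraries, which may be technical.

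NRF2, the protein encoded by *Nfe2l2*, is a transcription factor that KEAP1 holds in the cytoplasm and passes to a cullin ubiquitin ligase for destruction. Electrophiles and oxidants modify cysteines of KEAP1, after which NRF2 accumulates, pairs with a small MAF protein and binds antioxidant response elements (AREs) beside genes for glutathione synthesis, the thioredoxin system and quinone reduction. In myeloid cells the pathway is known for limiting oxidative damage and the output of inflammatory cytokines. *Sod1* and *Sod2* encode the cytosolic and the mitochondrial superoxide dismutase, and *Sod2* is also a classical target of NF-kB.

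The promoter windows of the members are shown first because the ARE is the sequence through which NRF2 acts. RefSeq windows on GRCm38.p6, from 250 bases before to 50 bases after each annotated start, were matched by symbol for 9 of the 10 members, *Gclc* being the member without one. The ARE core was searched as TGACNNNGC on both strands. Its first letters are shared with AP-1 and CREB elements. The core was present in the windows of 5 of the 9 members (55.6%), against 14.0% of the 27025 genes with a window and 37.5% of 24 other NRF2 target genes. For *Txnrd1*, which has several annotated starts, only 1 of its windows held a match. A search for the NF-kB consensus gave a match in 1 of the 9 members (11.1%), which was *Sod2*, against 9.55% of all genes with a window. The 30 bases around each match are given with the matching letters in capitals.
Nfe2l2: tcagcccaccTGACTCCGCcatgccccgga
Gclm: tcgtgagagtTGACGGTGCgcccgggagcg
Srxn1: tgtctcactcTGACCTAGCtgcccactgcc
Txnrd1: cgtgtcagaaTGACAAAGCaaaaatccagt
Sod1: ggcctgagtcTGACCACGCccaccttggca
Sod2, NF-kB: cggggcggacGGGGTTCCCCgaggcggggc

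The 5 ARE matches were read on the minus strand and the *Sod2* match on the plus strand of the build. The *Nfe2l2* match (chr2:75704884-75704913) lay 240 bases before the start and the *Gclm* match (chr3:122245412-122245441) 134 bases before it. The *Txnrd1* match (chr10:82859103-82859132) was 92 bases before 1 of its starts and the *Sod1* match (chr16:90220695-90220724) 56 bases before its start. The *Srxn1* match (chr2:152105541-152105570) lay 28 bases after the start. The NF-kB match of *Sod2* (chr17:13007746-13007775) lay 83 bases before the RefSeq start. In the GENCODE annotation the *Sod2* gene begins further upstream, at position 13006846, so this match lies inside it. A match of letters is a description of the window and does not show that a factor binds there. Sequence outside the windows was not searched, so a window without a match does not show that a gene lacks an ARE.

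The libraries held 33425803 to 43735199 counts on genes. Expression is given as CPM, the counts per scaled library size, after scaling with TMM factors, which ran from 1.18 to 1.26 in unstimulated DCs, from 0.783 to 0.841 in LPS-activated DCs and from 0.977 to 1.02 in IFN-β-treated DCs. The lowest raw count of a member in a library was 391 (*Nqo1* in LPS library A), so counting error was small beside the spread between libraries. The 6 marker genes of LPS stimulation summed to 117 to 176 CPM in unstimulated libraries, to 20495 to 21002 CPM with LPS and to 313 to 436 CPM with IFN-β. The 7 interferon-induced markers summed to 255 to 717, to 21557 to 28149 and to 8673 to 10854 CPM in the same order, so the libraries carried the marks of their labelled stimulus. Dendritic and macrophage markers, 9 genes with *Itgax* and *Zbtb46* among them, summed to 5984 to 8107 CPM, and none of the 9 was at 0. Single markers of this list differed in level, with *Flt3* at 3.06 CPM on average without stimulus. They also moved both ways with LPS, *Csf1r* falling from 1101 to 562 CPM on average and *Adgre1* rising from 158 to 369 CPM. Markers of B cells, T cells, erythroid cells and mast cells or basophils each summed to at most 0.354 CPM in any library, and stromal markers to 2.01 to 4.92 CPM. In bulk RNA, a change in the share of a cell type and a change of RNA per cell cannot be told apart.

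LPS changed 5 of the 10 members (edgeR, quasi-likelihood F-test, Benjamini-Hochberg adjusted p), against 68.2% of all 16260 genes tested. All 5 were higher (*Nfe2l2*, *Keap1*, *Slc7a11*, *Txnrd1* and *Sod2*), where 32.8% of all genes were higher and 35.4% lower. IFN-β changed 5 of the 10, against 46.9% of all genes. *Nfe2l2*, *Keap1* and *Sod2* were higher, as were 23.6% of all genes, and both glutamate-cysteine ligase subunits, *Gclc* and *Gclm*, were lower, as were 23.3%. Directly compared with LPS, IFN-β left 5 of the 10 lower (*Keap1*, *Gclc*, *Slc7a11*, *Txnrd1* and *Sod2*), against 49.1% of all genes changed between these groups (25.8% higher and 23.3% lower with IFN-β). In this fit, which leaves out the letters, the members' shares lie below or near those of all genes. The members are therefore described by their direction and size. The median log2 fold change of the 10 members was 0.34 with LPS, against -0.04 over all genes, and -0.21 with IFN-β, against -0.02. Between IFN-β and LPS it was -0.48, against 0.02 over all genes. The median size without regard to sign was smaller than over all genes with LPS (0.53 against 0.65) and with IFN-β (0.28 against 0.35). It was larger between IFN-β and LPS (0.48 against 0.38). These comparisons share libraries, and their values are therefore given side by side without a test of their likeness.

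The libraries of one letter deviated from their group means together, so the letters were also fitted as a replicate block. The block left the fold changes of the members nearly as they were and narrowed their errors. With the replicate block, LPS changed 8 members (5 higher and 3 lower, against 73.5% of all genes), IFN-β changed 10 (4 higher and 6 lower, against 56.3%), and 8 differed between IFN-β and LPS (all lower with IFN-β, against 58% of all genes). The scaling also mattered, because the TMM factors differed between the groups. With library size only, the median over all genes moved to -0.62 with LPS, to -0.32 with IFN-β and to 0.29 between IFN-β and LPS. The share of changed genes that were higher then went from 48.1% to 21.9%, from 50.3% to 22.3% and from 52.5% to 77.9% in the same order. Of the members, 3 were then higher and 4 lower with LPS, 2 higher and 5 lower with IFN-β, and 3 lower with IFN-β than with LPS.

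**Figure D1:**
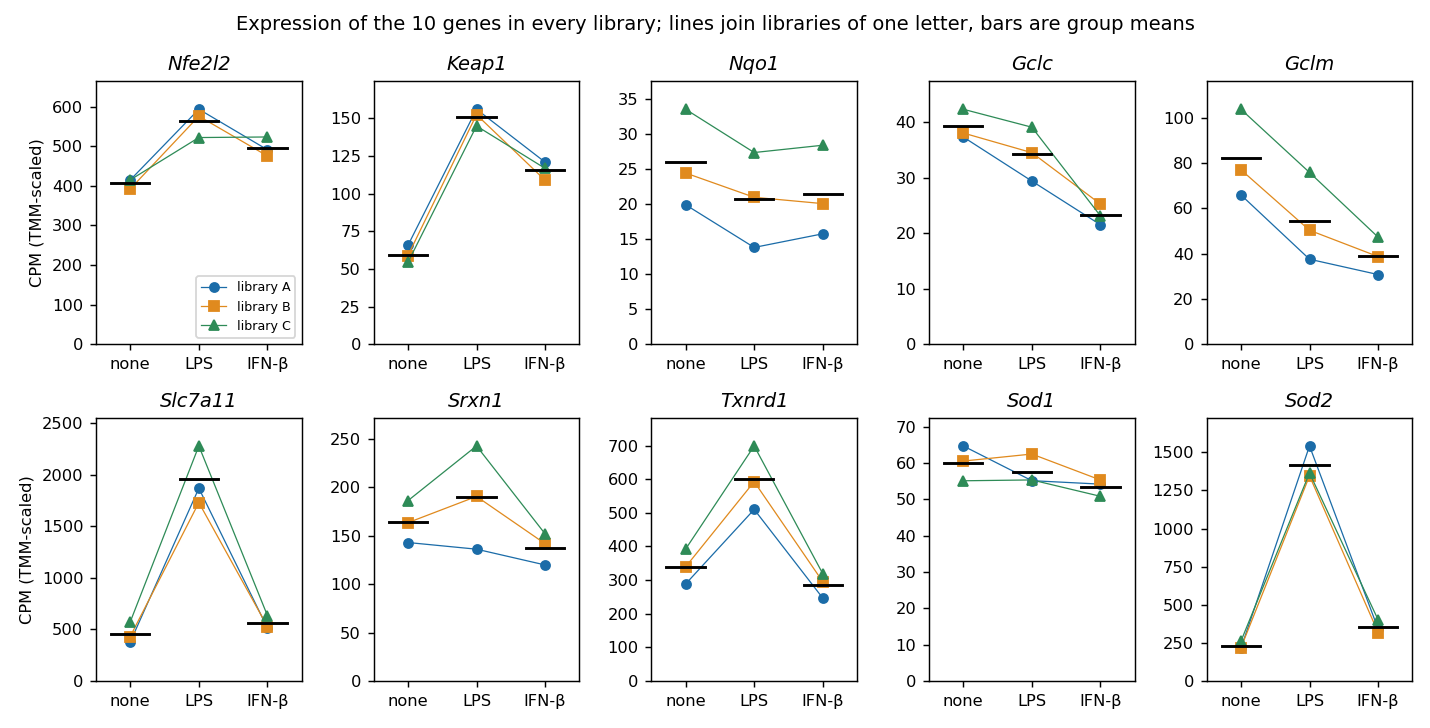
Expression of each of the 10 genes (CPM, linear axes from 0) in unstimulated (none), LPS-activated and IFN-β-treated DCs, with 1 point per library, lines joining libraries of one letter and bars at the group means. *Sod2* and *Slc7a11* stand far higher in all 3 LPS libraries, from 1346 and 1731 CPM upward, while the lines of *Nqo1* and *Gclm* keep library C above library B above library A in each group.

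The regulators were described first. *Nfe2l2* (ENSMUSG00000015839, chr2:75675513-75704641, minus strand) stood at 415, 392 and 415 CPM in unstimulated libraries A, B and C, at 594, 576 and 522 CPM with LPS and at 491, 476 and 524 CPM with IFN-β. Both stimulated groups lay above the unstimulated group without overlap, while the LPS and IFN-β libraries overlapped at library C. The rise was 1.38-fold with LPS (log2 fold change 0.47 ± 0.08 SE, n = 3, edgeR adjusted p = 0.000228) and 1.22-fold with IFN-β (0.29 ± 0.08, adjusted p = 0.00979), but its sign depended on the scaling, being -0.115 and -0.02 with library size only, where both values still lay above the median of all genes. The IFN-β call was lost without unstimulated library B (adjusted p = 0.0508). IFN-β and LPS differed by -0.18 ± 0.08 (adjusted p = 0.066), which passed the threshold with the replicate block (adjusted p = 0.0344), by DESeq2 (adjusted p = 0.0147), with RLE factors (adjusted p = 0.04) and without LPS library C (adjusted p = 0.0294), and had the opposite sign with library size only (0.09).

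*Keap1* (chr9:21229730-21239361, minus strand), the sensor and repressor of NRF2, stood at 65.6, 58.7 and 54.3 CPM without stimulus, at 156, 152 and 145 CPM with LPS and at 121, 109 and 117 CPM with IFN-β. None of the 3 groups overlapped, with LPS highest and unstimulated DCs lowest. LPS raised *Keap1* 2.54-fold (log2 fold change 1.34 ± 0.08, adjusted p = 1.1e-07) and IFN-β raised it 1.94-fold (0.96 ± 0.08, adjusted p = 7.13e-06). *Keap1* was 1.31-fold lower with IFN-β than with LPS (-0.39 ± 0.08, adjusted p = 0.00185), a call lost with library size only (-0.11, adjusted p = 0.156). Exons of *Keap1* share 510 bases, 10.9% of their length, with *Gm16754* on the opposite strand, and without knowledge of the strand setting reads there cannot be assigned to one of them.

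The next members supply glutathione, the main thiol of the cell. *Slc7a11* (chr3:49892526-50443614, minus strand) encodes xCT, the cystine and glutamate exchanger that brings in the cystine from which cysteine for glutathione is made. Its levels were 377, 431 and 572 CPM in unstimulated libraries A, B and C, 1869.8, 1731 and 2280.3 CPM with LPS and 513, 528 and 633 CPM with IFN-β. The LPS libraries stood apart from both other groups, which overlapped, and library C was the highest in each group. LPS raised *Slc7a11* 4.26-fold (log2 fold change 2.09 ± 0.17, adjusted p = 1.06e-06), and it was 3.51-fold lower with IFN-β than with LPS (-1.81 ± 0.17, adjusted p = 8.16e-06). IFN-β against no stimulus gave 0.28 ± 0.16 (adjusted p = 0.182), which passed the threshold with the replicate block (0.29 ± 0.08, adjusted p = 0.00474) and without unstimulated library C (0.46, adjusted p = 0.0231), and was -0.04 with library size only.

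*Gclc* and *Gclm* encode the catalytic and the modifier subunit of glutamate-cysteine ligase, the rate-limiting enzyme of glutathione synthesis. *Gclc* (chr9:77754535-77794485, plus strand) stood at 37.3, 38.1 and 42.3 CPM without stimulus, at 29.4, 34.5 and 39.1 CPM with LPS and at 21.5, 25.3 and 23.1 CPM with IFN-β. The IFN-β libraries lay below both other groups, and the LPS libraries overlapped with the unstimulated ones. IFN-β lowered *Gclc* 1.69-fold (log2 fold change -0.75 ± 0.11, adjusted p = 0.000237), and it was 1.48-fold lower than with LPS (-0.56 ± 0.11, adjusted p = 0.00135), a call lost with library size only (-0.29, adjusted p = 0.0814). LPS against no stimulus gave -0.19 ± 0.11 (adjusted p = 0.128), or -0.20 with the replicate block (adjusted p = 0.0222). It was also called without LPS library C (-0.30, adjusted p = 0.029) and with library size only (-0.77, adjusted p = 0.000195).

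*Gclm* (chr3:122245557-122270732, plus strand) stood at 65.9, 77.0 and 104 CPM in unstimulated libraries A, B and C, at 37.5, 50.3 and 75.8 CPM with LPS and at 30.7, 38.7 and 47.2 CPM with IFN-β. Library A was the lowest and library C the highest in every group, and the LPS libraries overlapped with both other groups. IFN-β lowered *Gclm* 2.12-fold (log2 fold change -1.08 ± 0.25, adjusted p = 0.00506) with no overlap with the unstimulated libraries. With LPS it differed by -0.81, -0.61 and -0.45 on the log2 scale within letters A, B and C. The fitted difference, -0.59 ± 0.25, missed the threshold in the fit without the letters (adjusted p = 0.0558) and passed it with the replicate block (-0.62 ± 0.07, adjusted p = 2.44e-06). Without the block it was also called by DESeq2 (adjusted p = 0.0352), with upper-quartile factors (adjusted p = 0.0372), with library size only (adjusted p = 0.00182) and with no filter (adjusted p = 0.000349). Leaving out 1 library moved it from -0.38 (without LPS library A) to -0.90 (without LPS library C, adjusted p = 0.00597), and it was -0.40 without unstimulated library C and -0.74 without unstimulated library A (adjusted p = 0.0328). The same held between IFN-β and LPS (-0.49, adjusted p = 0.132, and -0.46 with the replicate block, adjusted p = 1e-04), where no filter (adjusted p = 0.00846) and the fit without LPS library A (-0.71, adjusted p = 0.0322) also gave a call and the smallest difference without 1 library was -0.18 (without LPS library C). Exons of *Gclm* share 296 bases, 4.71% of their length, with the pseudogene *Gm6061* and with *Gm17494* on the opposite strand, which leaves those reads uncertain.

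Thus, of the 3 genes for cystine import and for the ligase, LPS raised *Slc7a11* while neither ligase subunit was called higher, and IFN-β lowered both subunits. In the fit with the replicate block both subunits were called lower with LPS (*Gclc* -0.20 and *Gclm* -0.62). Among the other glutathione genes, *Gsr*, the glutathione reductase, rose with LPS (1.32 ± 0.14, adjusted p = 8.44e-06) and fell with IFN-β (-0.43 ± 0.14, adjusted p = 0.0251). *Gss*, the glutathione synthetase, changed by 0.36 (adjusted p = 0.0201) and -0.38 (adjusted p = 0.0248). *Gsr* and *Gss* were named after their values were seen.

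*Txnrd1* and *Srxn1* belong to the thioredoxin branch. *Txnrd1* (chr10:82833951-82897712, plus strand), the cytosolic thioredoxin reductase, stood at 288, 339 and 392 CPM without stimulus, at 510.0, 593 and 699 CPM with LPS and at 246, 295 and 319 CPM with IFN-β. Every LPS library exceeded every library of the other groups, which overlapped, and library A was the lowest and C the highest in each group. LPS raised *Txnrd1* 1.77-fold (log2 fold change 0.82 ± 0.15, adjusted p = 0.000451), a difference of 0.82, 0.80 and 0.83 within letters A, B and C. With library size only the value was 0.24 (adjusted p = 0.195). *Txnrd1* was 2.10-fold lower with IFN-β than with LPS (-1.07 ± 0.15, adjusted p = 0.000145). IFN-β against no stimulus gave -0.24 ± 0.14 (adjusted p = 0.192), and -0.24 ± 0.06 with the replicate block (adjusted p = 0.00303), or -0.56 with library size only (adjusted p = 0.0123).

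*Srxn1* (chr2:152105516-152111376, plus strand) encodes sulfiredoxin, which repairs over-oxidised peroxiredoxins. It stood at 143, 164 and 186 CPM in unstimulated libraries A, B and C, at 136, 191 and 243 CPM with LPS and at 119.9, 142 and 152 CPM with IFN-β. All groups overlapped, and LPS library A lay below its unstimulated counterpart while LPS libraries B and C lay above theirs. LPS against no stimulus gave 0.21 ± 0.18 (adjusted p = 0.327), with a sign that turned without LPS library C (-0.01) and with library size only (-0.37), while without LPS library A it was called higher (0.40, adjusted p = 0.0297). IFN-β against no stimulus gave -0.25 ± 0.18 (adjusted p = 0.283), or -0.25 ± 0.08 with the replicate block (adjusted p = 0.0171) and -0.56 with library size only (adjusted p = 0.0314). IFN-β against LPS gave -0.46 ± 0.18 (adjusted p = 0.0571), or -0.43 ± 0.08 with the replicate block (adjusted p = 0.000399). It was also called without the block by DESeq2 (adjusted p = 0.0184), with RLE factors (adjusted p = 0.0422), with no filter (adjusted p = 0.00232) and without LPS library A (-0.66, adjusted p = 0.00382).

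*Nqo1* (chr8:107388225-107403206, minus strand), the quinone reductase widely used as a readout of NRF2 activity, was not called higher with either stimulus. It stood at 19.9, 24.5 and 33.6 CPM without stimulus, at 13.8, 21.0 and 27.4 CPM with LPS and at 15.8, 20.1 and 28.4 CPM with IFN-β. The 3 groups overlapped over most of their ranges, and library A was the lowest and library C the highest in each. LPS gave -0.32 ± 0.27 (adjusted p = 0.315) and IFN-β -0.28 ± 0.27 (adjusted p = 0.431) against no stimulus. Leaving out 1 library moved these from -0.10 (without LPS library A or unstimulated library C) to -0.57 (without LPS library C), and from -0.05 (without unstimulated library C) to -0.53 (without IFN-β library C), with no call. With the replicate block both were lower (-0.34 ± 0.07, adjusted p = 0.000669, and -0.29 ± 0.07, adjusted p = 0.00325), and the LPS value was called with library size only (-0.90, adjusted p = 0.014). The difference between IFN-β and LPS was 0.04 ± 0.28 (adjusted p = 0.91).

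The superoxide dismutases differed in their response. *Sod2* (chr17:13006846-13040063, plus strand), the manganese enzyme of mitochondria, stood at 214, 217 and 260.0 CPM without stimulus, at 1542.5, 1346 and 1365 CPM with LPS and at 341, 318 and 401 CPM with IFN-β. The 3 groups did not overlap, and the lowest LPS library was more than 3 times the highest IFN-β library. LPS raised *Sod2* 6.16-fold (log2 fold change 2.62 ± 0.12, adjusted p = 2.11e-08), the largest change among the 10 members, and IFN-β raised it 1.53-fold (0.62 ± 0.11, adjusted p = 0.00117). *Sod2* was 4.01-fold lower with IFN-β than with LPS (adjusted p = 3.12e-07). *Sod1* (chr16:90220754-90226329, plus strand), the copper and zinc enzyme of the cytosol, stood at 64.7, 60.5 and 55.1 CPM, at 55.1, 62.5 and 55.3 CPM and at 54.2, 55.3 and 50.8 CPM in the same order. The 3 groups of *Sod1* overlapped. LPS gave -0.06 ± 0.08 (adjusted p = 0.513) and IFN-β -0.17 ± 0.08 (adjusted p = 0.0995), which passed the threshold with the replicate block (-0.17 ± 0.06, adjusted p = 0.0263), with upper-quartile factors (-0.25, adjusted p = 0.0193) and without unstimulated library C (-0.23, adjusted p = 0.0473). With library size only *Sod1* was called lower with LPS (-0.64, adjusted p = 2.6e-05) and with IFN-β (-0.47, adjusted p = 0.000563). IFN-β against LPS gave -0.11 ± 0.08 (adjusted p = 0.275), which was 0.17 with library size only.

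In each comparison the groups did not overlap for the same 5 members that passed the threshold, against 72.4% of all genes whose groups did not overlap with LPS, 58.1% with IFN-β and 56.8% between IFN-β and LPS. The exact permutation test (two-sided, 3 libraries against 3) gave p = 0.1 for each of these members, the smallest it can give, so it cannot reach 0.05 in this design.

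**Figure D2:**
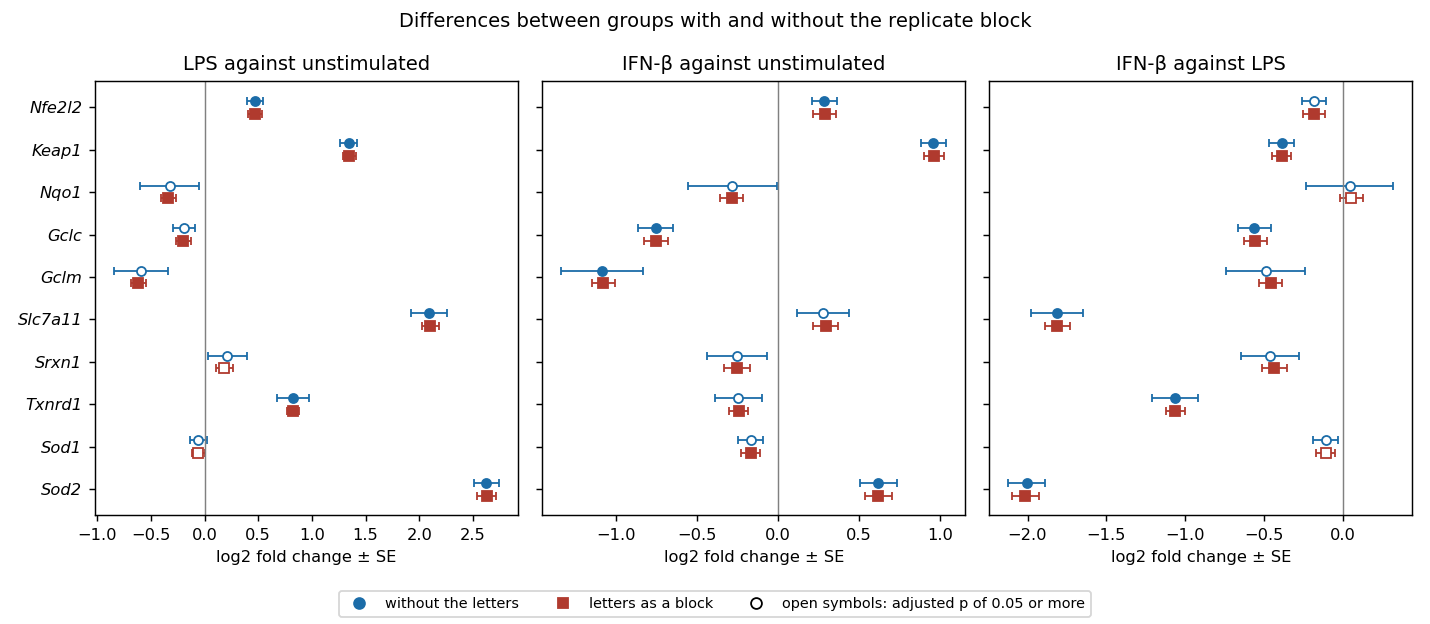
Log2 fold changes of the 10 genes ± SE from edgeR in the 3 comparisons, without the letters (blue circles) and with the letters as a replicate block (red squares), filled where the adjusted p was under 0.05. The centres nearly coincide, while the bars of *Nqo1*, *Gclm*, *Srxn1*, *Txnrd1* and *Slc7a11* shorten most with the block. The signs of *Nfe2l2* in all 3 panels, of *Srxn1* with LPS, of *Slc7a11* with IFN-β and of *Sod1* between IFN-β and LPS turn when counts are scaled by library size only.

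Compared per kilobase of the principal transcript of the annotation, the level of *Nfe2l2* was the highest of the 10 in unstimulated DCs at 165 ± 5.30 CPM per kb (SD, n = 3). *Txnrd1* at 96.2 ± 14.7 and *Sod1* at 93.8 ± 7.50 CPM per kb followed and did not differ beyond their spread. *Srxn1* (58.4 ± 7.69), *Slc7a11* (49.9 ± 10.9) and *Sod2* (39.3 ± 4.42 CPM per kb) came next, each within or near the spread of its neighbour. *Nqo1*, *Keap1*, *Gclm* and *Gclc* lay between 11.5 and 16.7 CPM per kb. With LPS the order was led by *Sod2* (242 ± 18.5), *Nfe2l2* (228 ± 15.1) and *Slc7a11* (213 ± 31.0 CPM per kb), which did not differ beyond their spread, and *Gclc* and *Gclm* were the lowest at 10.0 and 9.76 CPM per kb. With IFN-β *Nfe2l2* led again at 201 ± 9.91 CPM per kb, and *Gclm* (6.96) and *Gclc* (6.81 CPM per kb) were the lowest. Several places, those of *Sod1* and *Txnrd1* among them, depend on the length taken. With LPS, *Nfe2l2* led per kilobase of all exons (149 ± 9.82), before *Sod2* (142 ± 10.8) and *Slc7a11* (141 ± 20.5 CPM per kb), again within their spread. Per kilobase of all exons, unstimulated *Txnrd1* stood at 47.9 and *Srxn1* at 58.3 CPM per kb, the reverse of the order above. All annotated exons of *Sod1* cover 3.97 kb and its principal transcript 0.641 kb, and its unstimulated level per kilobase of all exons was 15.1 CPM per kb.

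Several members differed between the letters in every group. In the fit with the replicate block, the letter term passed the threshold for 5 of the 10 members, against 13.3% of all genes tested, and in all 5 library C lay above library A. *Nqo1* was higher in C than in A by 0.85 on the log2 scale (adjusted p = 1.4e-05) and *Gclm* by 0.76 (adjusted p = 3.69e-05). *Srxn1* was higher by 0.52 (adjusted p = 0.00242), *Txnrd1* by 0.42 (adjusted p = 0.00095) and *Slc7a11* by 0.40 (adjusted p = 0.00447). The letter term was an addition made after the data were seen. The regulators *Nfe2l2* (C minus A -0.03, adjusted p = 0.834) and *Keap1* (-0.14, adjusted p = 0.234) did not pass, nor did *Gclc* (0.23, adjusted p = 0.0982), *Sod1* (-0.11, adjusted p = 0.23) and *Sod2* (0.11, adjusted p = 0.232). For *Nqo1*, *Gclm*, *Srxn1* and *Txnrd1*, 4 of the 10 members, library A was the lowest and library C the highest in all 3 groups, against 3.15% of all genes.

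**Figure D3:**
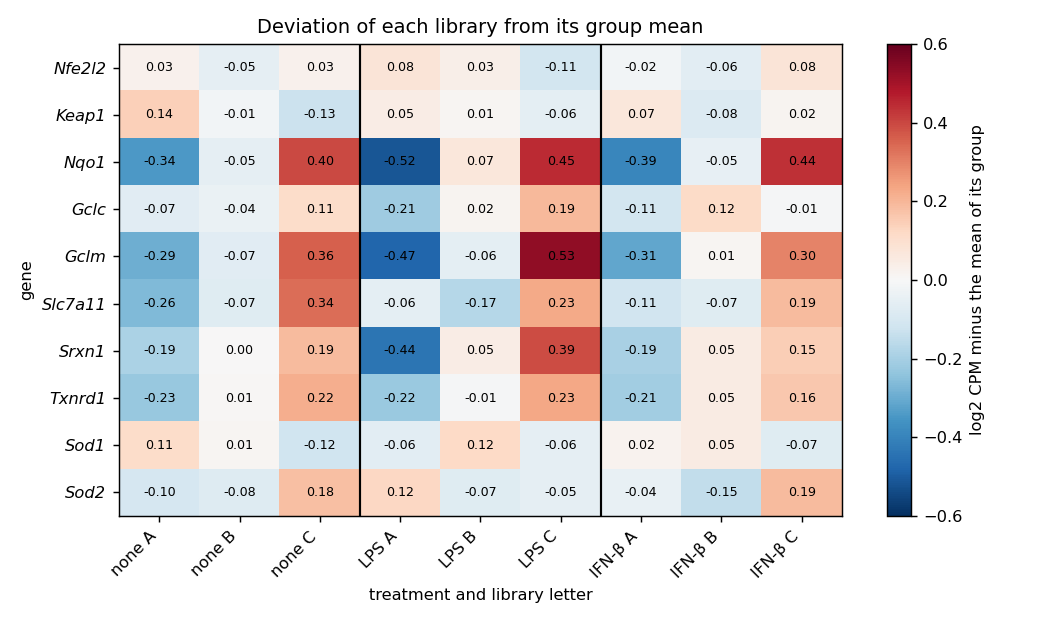
Deviation of each library from the mean of its group (log2 CPM, colour and printed value) for the 10 genes, with lines between the 3 groups. *Nqo1*, *Gclm*, *Srxn1*, *Txnrd1* and *Slc7a11* are below their group mean in all 3 A libraries and above it in all 3 C libraries, by up to 0.53 for *Gclm* in LPS library C.

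Other features moved with the letters. Neutrophil markers, 8 genes of which 5 were tested, summed to 19.7 to 25.6 CPM in the A libraries and to 9.61 to 15.9 CPM in the B and C libraries, and the defining markers *Ly6g*, *Mpo* and *Elane* lay between 0 and 0.27 CPM in every library. C minus A was -2.68 on the log2 scale for the neutrophil marker *S100a9* (adjusted p = 4.28e-07) and -0.67 for the macrophage marker *Adgre1* (adjusted p = 2.53e-05). Among the other dendritic and macrophage markers past the threshold, C minus A was -1.06 for *Flt3* (adjusted p = 0.000202), -0.32 for *H2-Ab1* (adjusted p = 0.0192), -0.28 for *Itgam* (adjusted p = 0.00953) and 0.29 for *Zbtb46* (adjusted p = 0.00864). In unstimulated DCs the interferon-induced markers summed to 717 CPM in library A, 523 in B and 255 in C. With LPS they summed to 28149, 21557 and 22890 CPM and with IFN-β to 10854, 8673 and 9655 CPM, library B being the lowest in both. The letter term passed the threshold for none of these 7 markers (edgeR adjusted p from 0.0679 to 0.831). The part of the features in this paragraph in the letter differences of the NRF2 genes was not tested.

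The wider pathway was read from lists of genes by role. Of 17 regulators of NRF2 other than *Nfe2l2* and *Keap1*, LPS changed 13 (9 higher and 4 lower, 76.5% against 68.2% of all genes), with a median log2 fold change of 0.21. With library size only these became 6 higher and 9 lower. The replicate block gave 11 higher and 4 lower, against 73.5% of all genes changed in that fit. *Acod1*, the enzyme that makes itaconate, a metabolite known to alkylate KEAP1, rose from 199 ± 28.6 to 5498 ± 231 CPM with LPS (log2 fold change 4.79 ± 0.16, adjusted p = 4.13e-09). *Mafk*, a small MAF partner of NRF2, rose by 1.64 (adjusted p = 1.21e-06). *Bach2*, a repressor that competes for the same elements, fell by 2.10 (adjusted p = 0.00267), from a low level of 0.997 CPM.

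IFN-β changed 9 of the 17 regulators, all higher (52.9% against 46.9% of all genes, median 0.21), or 5 higher and 6 lower with library size only. The replicate block gave 11 higher and 1 lower, against 56.3% of all genes changed in that fit, and upper-quartile factors gave 8 higher and 1 lower. *Acod1* rose to 1785 ± 271 CPM (3.17 ± 0.15, adjusted p = 4.38e-07) and *Mafk* by 1.39 (adjusted p = 1.8e-05). *Nfe2l3*, a relative of *Nfe2l2* at under 1 CPM in all groups, rose by 0.84 (adjusted p = 0.0331). Of the 17, 12 differed between IFN-β and LPS (3 higher and 9 lower with IFN-β, 70.6% against 49.1% of all genes), or 6 higher and 4 lower with library size only.

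Of 30 further NRF2 target genes 27 were tested. LPS changed 24 of them, 12 in each direction (88.9% against 68.2% of all genes, median -0.05), so the targets did not move one way. With library size only the split was 6 higher and 16 lower, and with the replicate block 12 higher and 13 lower, against 73.5% of all genes changed in that fit. The iron exporter *Slc40a1* rose by 1.98 (adjusted p = 1.11e-05) and the thioredoxin *Txn1* by 1.47 (adjusted p = 7.09e-08), while the haem transporter *Slc48a1* fell by 1.40 (adjusted p = 2.19e-05). *Hmox1*, the inducible haem oxygenase, rose by 0.80 (adjusted p = 0.00103) and *Prdx1*, a cytosolic peroxiredoxin, by 1.01 (adjusted p = 0.000166). *Hmox1* and *Prdx1* were named after their values were seen.

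With IFN-β 15 of the 27 targets changed, 3 higher and 12 lower (55.6% against 46.9% of all genes, median -0.26), and 9 changed without IFN-β library A. The replicate block gave 21, of which 4 were higher and 17 lower, against 56.3% of all genes changed in that fit. With library size only, 1 was higher and 20 were lower. The carbonyl reductase *Cbr3* fell by 0.90 (adjusted p = 0.000755), *Osgin1*, an oxidative stress-induced growth inhibitor, by 0.76 (adjusted p = 0.000685) and *Slc48a1* by 0.73 (adjusted p = 0.00404). *Hmox1* with IFN-β gave 0.31 (adjusted p = 0.138). Of the 27, 20 differed between IFN-β and LPS (9 higher and 11 lower with IFN-β, 74.1% against 49.1% of all genes), or 14 higher and 9 lower with library size only. The letter term passed the threshold for 12 of these 27 targets (44.4%, against 13.3% of all genes), with library C above library A in 10 of them.

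Of 25 antioxidant enzymes and related proteins outside the usual target list, 23 were tested. LPS changed 20, with 6 higher and 14 lower (87.0% against 68.2% of all genes, median -0.49), or 2 higher and 16 lower with library size only. The replicate block gave 7 higher and 16 lower, against 73.5% of all genes changed in that fit. *Prdx5*, a peroxiredoxin of mitochondria and peroxisomes, rose by 1.41 (adjusted p = 1.55e-07), whereas the mitochondrial glutaredoxin *Glrx5* fell by 1.41 (adjusted p = 8.33e-07) and the methionine sulfoxide reductase *Msrb2* by 1.25 (adjusted p = 8.89e-05). IFN-β changed 13 (6 higher and 7 lower, 56.5% against 46.9% of all genes, median -0.03), or 4 higher and 11 lower with library size only. The replicate block gave 7 higher and 7 lower, against 56.3% of all genes changed in that fit. *Glrx*, the cytosolic glutaredoxin, rose by 0.86 (adjusted p = 1.35e-05) and *Prdx6*, a peroxiredoxin, by 0.75 (adjusted p = 0.001), and *Glrx5* fell by 0.95 (adjusted p = 4.94e-05). Of the 23, 13 differed between IFN-β and LPS (56.5% against 49.1% of all genes), 12 of them higher with IFN-β, or 16 higher and 1 lower with library size only.

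*Slc7a11* is also a target of ATF4, the transcription factor of the amino acid and integrated stress response, so 7 genes of that response were read beside it. LPS changed 4 of the 7 (2 higher and 2 lower, 57.1% against 68.2% of all genes), or 2 without unstimulated library A, and 1 higher and 4 lower with library size only. The replicate block gave 3 higher and 2 lower, against 73.5% of all genes changed in that fit. *Slc3a2*, which encodes the heavy chain that pairs with xCT, rose by 1.84 ± 0.07 (adjusted p = 5.34e-09), while *Sesn2* fell by 1.10 (adjusted p = 1.21e-05) and *Trib3*, an inhibitory pseudokinase, by 0.69 (adjusted p = 0.0311). IFN-β changed 4, all higher (57.1% against 46.9% of all genes), or 7 with the replicate block, of which 5 were higher, and 2 higher and 2 lower with library size only. *Ddit3*, a stress-induced transcription factor, rose by 1.15 (adjusted p = 0.000369), *Chac1*, which degrades glutathione, by 0.95 (adjusted p = 0.0335) and *Slc3a2* by 0.92 (adjusted p = 2.71e-06). The level of *Chac1* was low, at 0.453 CPM on average without stimulus and 0.877 CPM with IFN-β. Of the 7, 4 differed between IFN-β and LPS (57.1% against 49.1% of all genes), 3 higher and 1 lower with IFN-β.

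**Figure D4:**
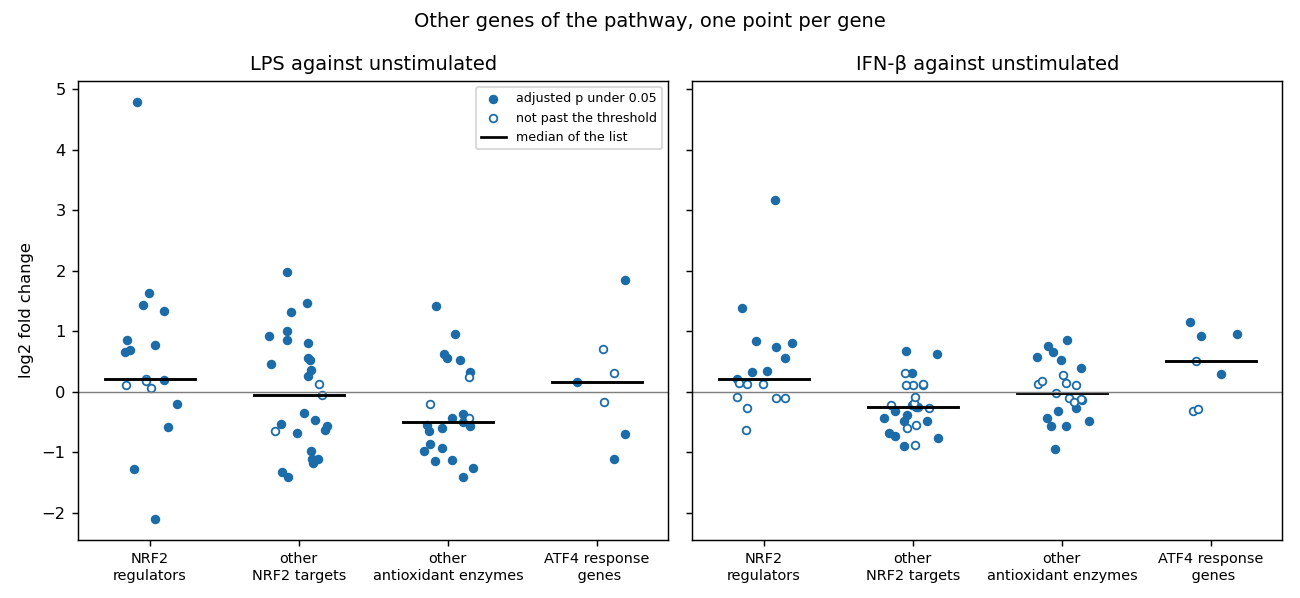
Log2 fold changes of the tested genes of 4 lists, 1 point per gene, with LPS (left) and with IFN-β (right) against unstimulated DCs, filled where the adjusted p was under 0.05 and with a bar at the median of the list. *Acod1* lies far above all others at 4.79 and 3.17, and the other NRF2 targets spread to both sides of 0 with LPS. With library size only the points of both panels shift down, the median over all genes with LPS going to -0.62.

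Profiles over the 9 libraries were compared by the root-mean-square difference of log2 CPM after each gene was centred on its own mean. The closest member pair was *Gclc* and *Srxn1* (0.25), followed by *Nfe2l2* and *Sod1* (0.25) and by *Slc7a11* and *Sod2* (0.26). *Gclm* and *Sod2* were the farthest apart (1.36). A small value does not mean a shared direction. *Nfe2l2* gave log2 fold changes of 0.47 with LPS and 0.29 with IFN-β, where *Sod1* gave -0.06 and -0.17. Among all genes tested, the profiles nearest to *Nfe2l2* were *Wbp2* (0.04), *Gnb2* (0.04) and *Kdm3b* (0.05). Nearest to *Slc7a11* were *Nr4a3* (0.06), *Gm37498* (0.10) and *Gm44067* (0.12). *Gm37498* lies inside the *Slc7a11* locus on the same strand (chr3:50400282-50404283) and shares 0 exonic bases with it. It stood at 20.7, 94.8 and 26.0 CPM on average in unstimulated, LPS-activated and IFN-β-treated DCs, and reads from introns of *Slc7a11* and reads from a separate transcript cannot be told apart in these counts. Nearest to *Sod2* were *Kremen1* (0.09), *Ehd1* (0.11) and *Nectin2* (0.12).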

How the data were processed

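RNA sequencing of 9 libraries of mouse bone marrow-derived DCs was analysed. The count table deposited by the authors holds raw counts, with no normalization or filter. Their processing notes name Trim Galore 0.6.0, STAR 2.7.8a and GRCm38, the libraries were depleted of ribosomal RNA, and the strand setting of the counting is not given in the sources used here. Members were found by symbol. The members and all lists were chosen with earlier results of these data known.

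Counts were tested in R 4.3.3 by edgeR 4.0.16, with limma 3.58.1 (TMM factors, filterByExpr, quasi-likelihood F-tests, 1 term per condition over all 9 libraries). P-values were adjusted over the 16260 genes tested by the Benjamini-Hochberg method, with a threshold of 0.05. The SE is the absolute log2 fold change divided by the square root of F. On simulated data for LPS against unstimulated (15981 genes tested), 108 genes were changed by 1 and 90 by 2 on the log2 scale. Of these, 79.6% and 91.1% were recovered, with 7.18% of calls among unchanged genes. The simulation held no letter differences and far fewer changed genes than the 68.2% called with LPS. Its rates therefore need not hold for these data. Log2 CPM of single libraries used a pseudocount of 0.5 CPM.

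The letters A, B and C come from the sample titles, and what they mark is not stated. After subtraction of group means, all 9 same-letter pairs of libraries correlated by more than 0.1 across genes (0.134 to 0.546). Values with the replicate block are therefore given where they change the call of a member. For the lists, counts with the block are given against unstimulated DCs and not between IFN-β and LPS. Genes are not independent replicates.

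The alternatives were DESeq2 1.42.0, library size only, upper-quartile factors, RLE factors, no filter, at least 10 counts in every library, the 2 compared groups alone, the replicate block, each library left out, an adjusted p under 0.01 and a limit of 1 on the absolute log2 fold change. The letter term and the block fit without each library were added after the data were seen. Named genes were the 10 members, the 3 largest changes past the threshold in each list with LPS and with IFN-β, the label checks, and the 3 nearest profiles of *Nfe2l2*, *Slc7a11* and *Sod2*. Gene coordinates are from GENCODE M21 on GRCm38, where the counts were made on the preceding release. Promoter windows are from RefSeq (GRCm38.p6).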

Additional observations from a re-analysis of the deposited data

How the results depend on the processing

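Of 510 values (10 genes, 3 comparisons, 17 alternatives), 460 kept their direction and their side of the threshold, 37 gained a call, 4 lost one and 9 changed sign. Each group had 3 libraries, and the cause of the changes below was not tested. With the replicate block the changed members were 8, 10 and 8 with LPS, with IFN-β and between IFN-β and LPS, in place of 5 in each, and in that fit 7 to 9, 8 to 10 and 7 to 8 without each library in turn. The ATF4 response genes changed by IFN-β went from 4 to 7 with the block, and the other targets from 15 to 21. No called member lost its call with the block. With library size only, signs turned for *Nfe2l2* (-0.115, -0.0213 and 0.0938), for *Srxn1* with LPS (-0.37), for *Slc7a11* with IFN-β (-0.0352) and for *Sod1* between IFN-β and LPS (0.17), and the changed members between IFN-β and LPS fell to 3.

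With a limit of 1 on the absolute log2 fold change, changed members were 3, 1 and 3 in the same order, regulators 6, 2 and 3, other targets 9, 0 and 3, other antioxidant enzymes 5, 0 and 3 and ATF4 response genes 2, 1 and 1. The counts of 0 stand beside 15 and 13 genes changed by edgeR without a limit on the fold change. All genes numbered 5429, 2052 and 2834, in place of 11084, 7631 and 7989. At an adjusted p under 0.01, 8 other targets changed with IFN-β and 2 ATF4 response genes with LPS. Without each library in turn, the changed members were 5 to 7, 4 to 7 and 5 to 7. Other targets changed by IFN-β were 9 to 17 and ATF4 response genes changed by LPS 2 to 4. *Srxn1* with LPS ranged from -0.00667 to 0.40 and *Nqo1* between IFN-β and LPS from -0.21 (without IFN-β library C) to 0.29, with -0.18 without LPS library A.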

Other observations

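Some antioxidant genes outside the NRF2 members also differed between the letters. The letter term passed the threshold for 5 of the 23 other antioxidant enzymes (21.7%), with library C above A in 2 and below it in 3. For the regulators it passed in 4 of 17 (23.5%), with 2 in each direction, against 13.3% of all genes. *Selenop*, a selenoprotein that carries selenium, gave a C minus A difference of -1.07 on the log2 scale (edgeR adjusted p = 1.2e-07) and the secreted glutathione peroxidase *Gpx3* one of -0.85 (adjusted p = 6.67e-06). Catalase (*Cat*) was higher in C than in A by 0.31 (adjusted p = 0.0129). Among the NRF2 targets, the glutathione transferase *Gsta3* was higher by 1.40 (adjusted p = 0.00287) and the conjugate exporter *Abcc1* by 0.61 (adjusted p = 4.59e-05), while the epoxide hydrolase *Ephx1* gave -0.73 (adjusted p = 3.29e-05). The level of *Gsta3* was low, with group means from 0.858 to 1.56 CPM. Of the small MAF genes, *Maff* was higher by 0.41 (adjusted p = 0.00864) and *Mafg* by 0.24 (adjusted p = 0.0208), and *Mafk* gave -0.34 (adjusted p = 0.00966). These genes were named after their values were seen.

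Inflammatory genes differed as well. *Il1b* was higher in C than in A by 0.82 (adjusted p = 0.00814) and *Il6* by 0.64 (adjusted p = 0.00215), while *Nos2* gave a C minus A difference of -0.56 (adjusted p = 0.042). The other LPS markers did not pass the threshold, *Tnf* giving 0.34 (adjusted p = 0.123), *Ptgs2* -0.28 (adjusted p = 0.227) and *Il12b* -0.22 (adjusted p = 0.207). In unstimulated DCs, *Irf7*, a regulator of interferon genes, stood at 228, 161 and 33.3 CPM in libraries A, B and C, a difference that the letter term over all groups did not call (adjusted p = 0.111).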
